A study of Mus musculus with 14 samples.

Results

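RNA that came down with a control immunoglobulin G (IgG) from newborn mouse cortex was compared with the input RNA of the same lysates. The members are 4 libraries of 14 in the series, 2 IgG pull-downs and 2 inputs, chosen by their labels. All were made from cortex of C57BL6/J mice at postnatal day 0.5, with 2 neonates pooled in each replicate, lysed for RNA immunoprecipitation (RIP) with a Millipore Magna-RIP kit and sequenced after a Clontech SMARTer stranded library preparation of total RNA. No allele or drug distinguishes them, and each lysate was divided into a matched trio, A or B, of an antibody to the C-terminal part of AUTS2, control IgG, and 10% kept as input. The AUTS2 RIP libraries are given here only as further values, since both tables share them. The labels do not give the animal in which the IgG was raised. The 2 trios are the only replicates, and the labels call them biological. Each p-value rests on 2 pools a group, with a gene's spread moderated toward that of genes of similar level.

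A control antibody has no intended target in the lysate. What it carries down is taken to be RNA and ribonucleoprotein held by beads, tube or antibody without an intended contact. In a RIP experiment this background is what a specific antibody is read against. Since FPKM are relative within a library, a gene higher in IgG makes up more of that library than of the input, which says nothing of the amount of RNA recovered.

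The deposited values are FPKM, fragments scaled to transcript length and to library size. The IgG and input libraries stand in tables that the authors scaled separately, so every level set across them rests on a bridge: the shared RIP libraries differed by a factor of 1.018 between the tables for trio A and 1.015 for trio B, and the IgG values were multiplied by it. FPKM times transcript length moved in equal steps, which gives the fragments behind each value. By this measure the IgG libraries held 1294660 and 1885590 fragments, the inputs 1427630 and 1127770, and the RIP libraries 4413250 and 4200180. One fragment on a transcript of 1 kb was worth 0.660 and 0.456 FPKM in IgG and 0.565 and 0.719 FPKM in input. These are shallow libraries, and a value near 1 FPKM rests on very few fragments.

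The IgG libraries held most of what the input held. Of 15036 genes whose mean reached 1 FPKM, among 51626 annotated symbols, 304 passed an adjusted p of 0.05 (limma with Benjamini-Hochberg adjustment on log2(FPKM + 1)), which is 2.02% of those tested. In IgG, 111 genes (0.738%) were higher and 193 (1.28%) lower, and the median log2 difference over all genes was 0.01. A gene is called below where it passed this test. The groups did not overlap, with both IgG values above both inputs, for 25.1% of genes, and with both below for 24.0%. On FPKM + 1, genes at least 2-fold apart made up 8.51% between the IgG libraries and 8.26% between the inputs. Between IgG and input within trios A and B they made up 12.4% and 11.2%. Most genes were thus less than 2-fold apart on that scale, both between replicates and between IgG and input. That scale shrinks the folds of low genes. The calls need all 4 libraries: leaving out any one left 0 calls, with 1828 to 1988 genes at an unadjusted p under 0.05 where 2649 had it before. Weighting genes by their recovered fragments (limma voom, 12680 genes with at least 20 fragments, chosen after seeing the data) called more, 1017 higher (8.02%) and 754 lower (5.95%), and at least 389 higher and 378 lower without any one library.

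**Figure D1:**
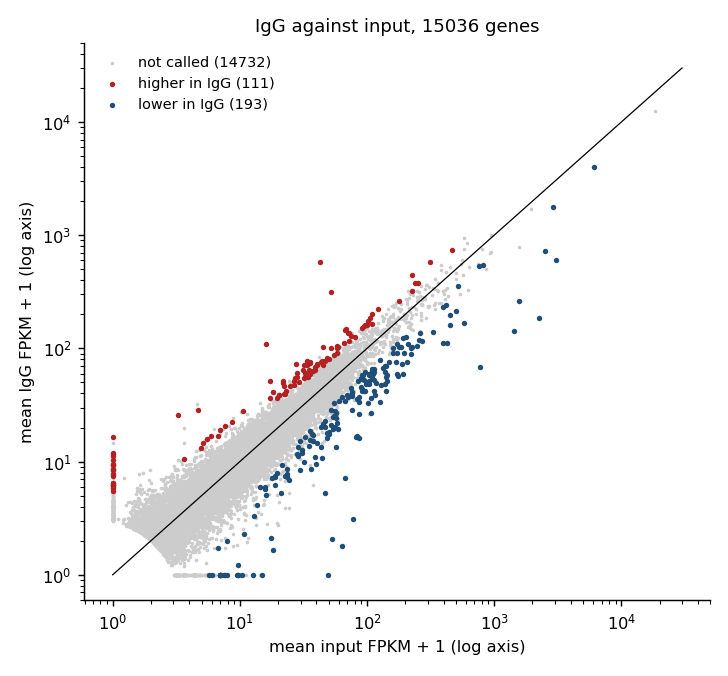
Mean FPKM + 1 in the 2 IgG libraries against the 2 input libraries for 15036 genes, on log axes with the line of equality. Most genes lie along the line, with the 193 called lower in IgG on one side of it and the 111 called higher on the other.

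Several small structured RNAs of the cell's housekeeping particles were among the named genes with the largest falls in the control pull-down. The 7SL RNAs form the core of the signal recognition particle, which docks ribosomes at the endoplasmic reticulum. The Y RNAs are scaffolds bound by the Ro60 protein, Rmrp and Rpph1 are the RNA parts of RNase MRP and RNase P, and the U3 RNA Rnu3a guides ribosomal RNA processing. GENCODE vM21 sequences on GRCm38 of 4 of them are shown because they are molecules that made up less of the IgG libraries than of the input. Rny1 lies at chr6:47788069-47788180 on the minus strand and Rny3 at chr6:47781624-47781725 on the plus strand, and capitals mark their longest shared stretch, of 12 bases:
Rny1: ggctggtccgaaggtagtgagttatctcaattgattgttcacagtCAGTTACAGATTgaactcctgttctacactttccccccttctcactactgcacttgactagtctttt
Rny3: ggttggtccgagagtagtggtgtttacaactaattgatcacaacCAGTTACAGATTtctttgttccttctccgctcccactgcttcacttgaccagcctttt
Rmrp (chr4:43492788-43493058, minus strand) and Rnu3a (chr10:40258467-40258680, plus strand) share no marked stretch and are printed without capitals:
Rmrp: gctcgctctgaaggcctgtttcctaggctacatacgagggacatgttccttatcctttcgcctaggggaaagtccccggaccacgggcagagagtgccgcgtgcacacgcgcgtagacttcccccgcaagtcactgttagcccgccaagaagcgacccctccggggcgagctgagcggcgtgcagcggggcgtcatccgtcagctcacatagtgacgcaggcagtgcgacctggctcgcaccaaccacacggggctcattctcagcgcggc
Rnu3a: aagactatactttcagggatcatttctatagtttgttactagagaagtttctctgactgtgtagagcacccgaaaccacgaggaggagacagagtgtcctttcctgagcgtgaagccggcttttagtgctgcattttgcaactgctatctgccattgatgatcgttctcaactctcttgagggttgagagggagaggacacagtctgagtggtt

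Rn7s2 stood at 224 and 141 FPKM in the IgG libraries and at 2167 and 2359 FPKM in the inputs. Its mean was 12.4-fold lower in IgG (log2 difference -3.66 ± 0.21 SE, limma adjusted p = 0.0033, n = 2 libraries a group), on 102 and 93 fragments against 1150 and 984. Rn7s1, which has the same sequence as Rn7s2, was 10.2-fold lower, and reads of the pair cannot be told apart. Rn7s6, which is not a member of the list counted below, stood at 70.3 and 65.9 FPKM against 721 and 816, which was 11.3-fold lower (adjusted p = 0.000168). Every IgG value of these 7SL genes lay below every input value, in both trios. Rn7s6 shares a stretch of 173 identical bases with Rn7s2. Reads from that stretch cannot be assigned to either gene, so the 7SL genes are not separate results.

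The RNase RNAs fell less far. Rpph1 stood at 617 and 594 FPKM in IgG and at 2697 and 3445 FPKM in input, 5.07-fold lower (log2 -2.33 ± 0.12 SE, limma adjusted p = 0.00225); it overlaps Ccnb1ip1 on the same strand. Rmrp stood at 755 and 682 FPKM against 2248 and 2757, 3.48-fold lower (adjusted p = 0.0049), and overlaps Ccdc107 on the other strand. Rnu3a was 3.86-fold lower, at 102 and 117 FPKM against 420 and 427 (adjusted p = 0.00225). For these 3 RNAs the groups were separated by far more than their replicates were. The symbols Rmrp and Rnu3a each cover 2 annotated genes, and transcripts were summed by symbol. Their loci and sequences above are those of the gene with the most abundant transcript.

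The Y RNAs were less even. Rny1 stood at 159 and 367 FPKM in IgG and at 1408 and 1702 in input, 5.91-fold lower (limma adjusted p = 0.0469), and its IgG values differed more than 2-fold from each other. Rny3 stood at 621 and 940 FPKM against 1408 and 1727. Its mean was 2.01-fold lower without passing the test (adjusted p = 0.0724), it passed with the trio as a block (adjusted p = 0.00996), and quantile normalization took its difference to -0.03. Rn7sk, the RNA that holds the elongation factor P-TEFb inactive, was the most abundant of the list, at 4119 and 3925 FPKM against 5840 and 6438. It was only 1.53-fold lower (adjusted p = 0.0262), a far smaller difference than that of the 7SL RNAs.

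Over the list of small structured housekeeping RNAs, 8 of 15 tested members were called lower and 0 higher, and 11 lay below input in both trios without overlap. Among all genes tested 1.28% were called lower and 24.0% lay below input without overlap. The list's median log2 difference was -1.76, beside 0.01 over all genes. Together these RNAs took 2.70% and 2.90% of FPKM in IgG, 6.17% and 7.09% in input, and 1.11% and 1.32% in the AUTS2 RIP. The shortest RNAs gave mixed values. Of 84 small nucleolar and Cajal body RNAs tested, 7 were called lower and 1 higher, with a median of -0.29. Snora81, a box H/ACA guide of ribosomal RNA pseudouridylation inside Eif4a2, stood at 108 and 115 FPKM against 348 and 439 (limma adjusted p = 0.00534). Scarna2, a guide RNA of Cajal bodies named after its values were seen, went the other way, at 400 and 495 FPKM against 238 and 215 (adjusted p = 0.023). Snord7 and Snora7a, listed at 0 in IgG, rest on 4 and 2.88 input fragments in all, and their calls carry that limit.

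**Figure D2:**
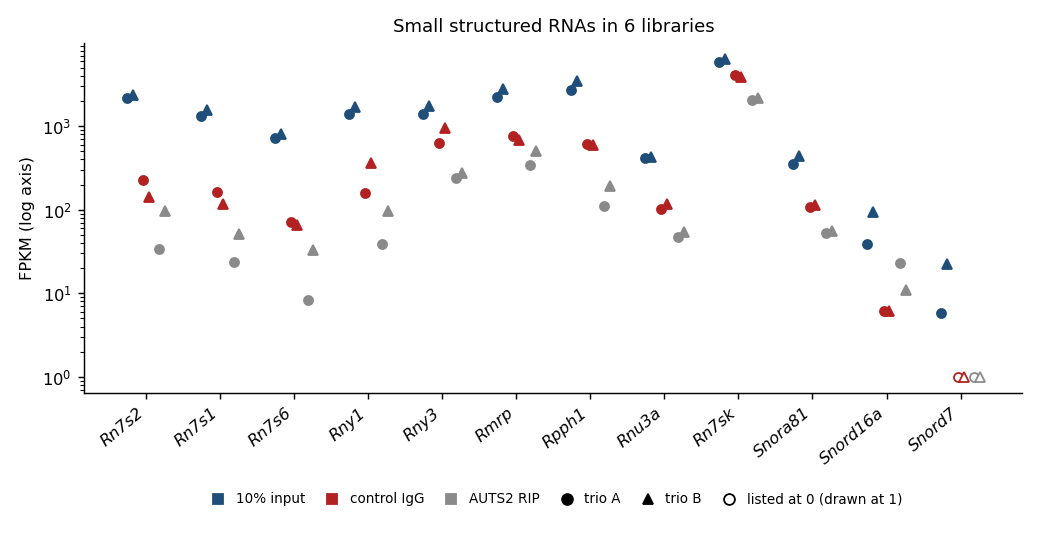
FPKM (log axis) of 12 small RNAs in each input, control IgG and AUTS2 RIP library, circles for trio A and triangles for trio B, with values listed at 0 drawn as open symbols at 1. The 7SL RNAs Rn7s1, Rn7s2 and Rn7s6 sit about a decade below input in IgG, while Rn7sk is 1.53-fold lower.

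Messenger RNAs for the ribosome and for mitochondrial respiration were the protein-coding genes that fell together. Of 83 cytosolic ribosomal protein genes tested, 50 were called lower in IgG and 0 higher, and 80 had both IgG values below both inputs. Among all genes 1.28% were called lower and 24.0% had both IgG values below both inputs. The median log2 difference of the ribosomal protein genes was -1.10, -0.97 in trio A and -1.06 in trio B. Their mRNAs are short, very abundant and share a pyrimidine start that places them under common translational control. They took 1.54% and 1.54% of FPKM in IgG and 2.84% and 2.98% in input. Small-subunit genes were called lower in 25 of 33, with a median of -1.19, and large-subunit genes in 25 of 49, with a median of -0.94. The difference between the subunits was not tested.

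Rps23, of the ribosome's decoding centre, stood at 12.2 and 18.7 FPKM in IgG and at 89.7 and 73.2 in input, 5.27-fold lower (limma adjusted p = 0.0113). Rplp1, of the stalk that recruits elongation factors, stood at 175 and 155 FPKM against 523 and 624 (3.48-fold lower, adjusted p = 0.0049). Rps28 was 3.42-fold lower (43.6 and 38.6 against 139 and 142 FPKM) and Rps4x 2.87-fold lower (48.1 and 47.0 against 140 and 133 FPKM). No IgG value of these genes reached an input value, as was so for every gene called lower. Rps15a was 5.17-fold lower in FPKM and 2.26-fold lower in fragments, since FPKM divides the fragments of each isoform by its own length. The 3 genes whose groups overlapped, named after their values were seen, were Rpl10a, at 24.1 and 25.2 FPKM against 15.3 and 24.9, Rps25, at 36.3 and 41.2 against 31.5 and 55.0, and Rpl27a, which had a log2 difference of -0.36 (limma adjusted p = 0.531). None of the 3 passed the test.

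Of 80 nuclear genes of oxidative phosphorylation, 16 were called lower and 0 higher, with a median of -0.75 and 62 below input without overlap. The shares over all genes were 1.28% called lower and 24.0% below input without overlap. By complex, 7 of 13 cytochrome oxidase genes were called lower, 4 of 37 of complex I, 3 of 17 of ATP synthase, 2 of 9 of complex III and 0 of 4 of complex II. Uqcr11, a small subunit of complex III, stood at 8.90 and 6.15 FPKM against 35.0 and 35.6 (limma adjusted p = 0.0143). Cox8a, a small subunit of cytochrome oxidase, stood at 77.5 and 72.0 against 149 and 145 (adjusted p = 0.0148). Usmg5, a small ATP synthase subunit that is not among the 80 listed genes and overlaps Taf5 on the other strand, was listed at 0 and 1.34 FPKM in IgG against 19.9 and 14.8 in input. The genes of the mitochondrial genome were listed at 0 in every library, so they give no comparison.

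Other lists of growth and housekeeping mRNAs held few calls. Among 27 translation factors 4 were called lower and 0 higher: Tpt1, a growth-linked protein whose mRNA behaves like a ribosomal one, and the elongation and initiation factors Eef1a1, Eef1b2 and Eif5a. Tpt1 stood at 222 and 207 FPKM against 498 and 503 (limma adjusted p = 0.00534). Tmsb4x, which encodes the actin-sequestering thymosin, was the single call among 18 actin genes, at 136 and 141 FPKM against 326 and 335 (adjusted p = 0.00534). Its whole list leaned the same way, since 18 of 18 differences were negative with a median of -0.36. Of 78 mitochondrial ribosomal protein genes 1 was called lower (median -0.48), which at 1.28% is the share of all genes called lower. Of 35 proteasome genes 2 were called lower (median -0.44) and of 21 selenoprotein genes 0 were called (median -0.38).

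**Figure D3:**
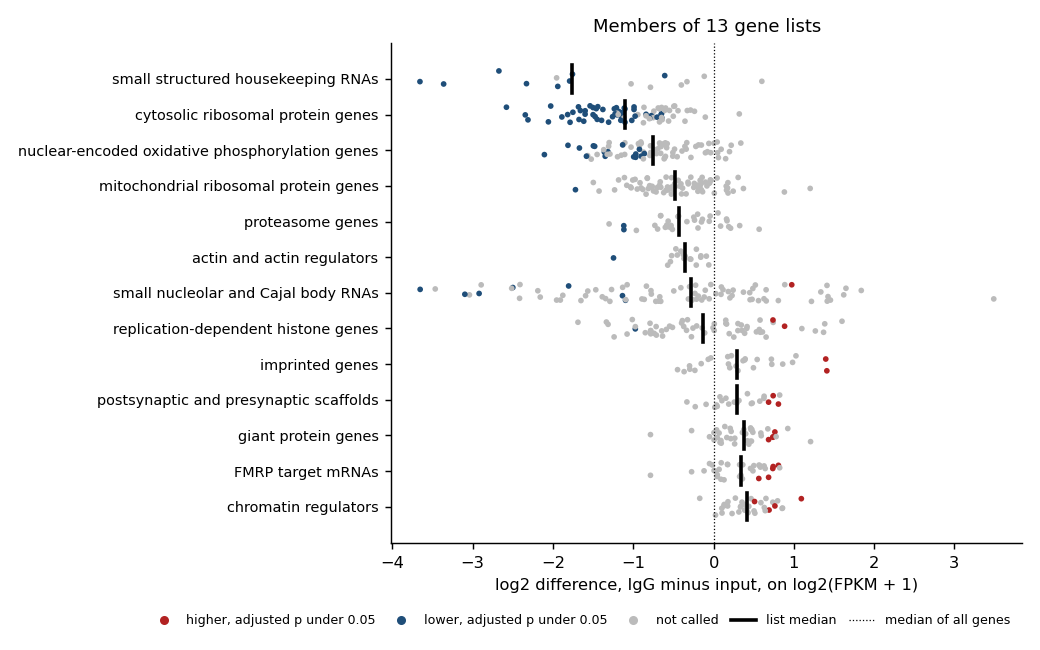
Log2 difference, IgG minus input, of the tested members of 13 gene lists, with called members in colour, the list median as a bar and the median of all genes dotted. Small structured RNAs and ribosomal protein genes lie left of 0 except 1 in each list, and the scaffold, giant protein, FMRP target and chromatin lists lie mostly right of 0 at smaller distances.

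Lists of long neuronal and chromatin mRNAs had calls in the higher direction and none in the lower. Over all genes 0.738% were called higher and 1.28% lower. Of 35 chromatin regulators, 4 were called higher and 0 lower, 34 had a positive difference, and the median was 0.41. Kmt2d, a histone H3 lysine methyltransferase of enhancers, stood at 54.4 and 64.2 FPKM in IgG and at 26.9 and 27.4 in input (2.18-fold higher, log2 1.09 ± 0.14 SE, limma adjusted p = 0.022). Crebbp, a histone acetyltransferase, stood at 108 and 115 FPKM against 67.4 and 63.2 (1.71-fold, adjusted p = 0.0269). Kmt2e and the remodeller Chd3 were also called. For all of them both IgG values lay above both inputs, as was so for every gene called higher.

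Of 39 giant protein genes 4 were called higher and 0 lower (median 0.38). The counts were 3 and 0 of 23 synaptic scaffold genes (median 0.29), and 5 and 0 of 35 FMRP target mRNAs (median 0.34). The share of all genes called higher was 0.738%. FMRP is the fragile X protein, which binds many long brain mRNAs, and these lists share members. Pclo, a scaffold of the presynaptic active zone, stood at 116 and 115 FPKM against 72.3 and 70.3 (1.62-fold, limma adjusted p = 0.0297). Dlg4, which encodes the postsynaptic scaffold PSD-95, stood at 110 and 91.9 FPKM against 55.8 and 58.2 (1.77-fold, adjusted p = 0.0367). Dync1h1, the dynein motor, Bsn, a partner of Pclo, and Lrp1, a large endocytic receptor, completed the named calls. The groups did not overlap for any of these genes, as was so for every called gene.

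The number of calls in these lists depended on the model. With the trio as a block, 7 chromatin regulators and 8 FMRP targets were called. On recovered fragments 22 of 35 chromatin regulators and 22 of 35 FMRP targets were called higher, beside the 8.02% of all genes given above, and 1 FMRP target was called lower. With the trends of length and GC content removed from each library, 1 chromatin regulator, 0 giant protein genes, 0 scaffold genes and 0 FMRP targets were called higher, and their medians were 0.28, 0.19, 0.20 and 0.16. The ribosomal protein genes had 40 calls under that removal with a median of -0.93, and the small structured RNAs 7 with a median of -1.50.

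Cplx2, a complexin that clamps synaptic vesicle fusion, stood at 147 and 127 FPKM in IgG against 73.5 and 67.4 in input (1.94-fold higher, limma adjusted p = 0.022). The 18 synaptic vesicle genes had a median of 0.02, so the list as a whole lay near the level of all genes. The receptor genes Grik3 and Gabra2 were 2 calls among 21 (median 0.24). Cacna1b, a calcium channel of nerve terminals, was 1 among 21 (median 0.31). These counts stand beside 0.738% of all genes called higher.

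The largest rises that the ranking rule names included a pair of imprinted genes from chromosome 6, both expressed from the paternal copy. Mest (chr6:30723547-30748465) stood at 73.6 and 69.6 FPKM in IgG and at 24.0 and 28.8 in input, 2.71-fold higher (log2 1.41 ± 0.14 SE, limma adjusted p = 0.0143). It overlaps Copg2 on the other strand, which stood at 14.6 and 10.98 against 10.1 and 8.88 FPKM, and the strand setting of the counting is not given. Peg10 (chr6:4747306-4760517), derived from a retrotransposon, stood at 26.9 and 26.6 FPKM against 8.34 and 10.9, 2.78-fold higher (adjusted p = 0.0268). In the RIP libraries Mest stood at 15.3 and 15.5 and Peg10 at 31.8 and 27.9 FPKM, so that both IgG values of Mest lay above all others, and the IgG and RIP values of Peg10 spanned 26.6 to 31.8 FPKM. These were the 2 calls among 26 imprinted genes (7.69%, beside 0.738% of all genes called higher), whose median was 0.29. The maternally expressed RNAs Meg3 (712 and 800 against 515 and 641 FPKM) and H19 (29.5 and 35.7 against 19.1 and 19.5 FPKM) did not pass.

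Iglon5, a neuronal adhesion protein, stood at 101 and 101 FPKM against 42.0 and 46.0 (2.30-fold, limma adjusted p = 0.0113). Celf3, a splicing regulator of neurons, stood at 47.4 and 49.5 against 18.5 and 23.5 (2.31-fold, adjusted p = 0.0264), and St6galnac5, a sialyltransferase of brain gangliosides, at 49.2 and 52.0 against 23.9 and 17.4 (2.45-fold, adjusted p = 0.0288). Unc80, part of the NALCN leak channel, was 2.80-fold higher in FPKM but 1.44-fold higher in fragments. Fam160b2, Fkbp7 and Miip were also named, at 12.1 to 24.2 FPKM in IgG and 3.57 to 8.03 in input. Cmss1 and Filip1l lie on opposite strands of one locus on chromosome 16 and were listed at 0 in input and RIP, and at 12.8 and 8.34, and 5.91 and 4.11 FPKM in IgG. A value of 0 can be a failed estimate, so no fold is given, and with the trio as a block Filip1l no longer passed (adjusted p = 0.0515). Mir1291 rests on 1 and 2 IgG fragments within Kansl2 and Snora34. Its mature arm, whose seed is in capitals, is given by RefSeq for GRCm38.p6 at chr15:98519828-98519853:
mmu-miR-1291: aUGGCUCUuacugaagacuagcaguu
The fragments were of a total RNA library and do not show that the mature microRNA was present.

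**Figure D4:**
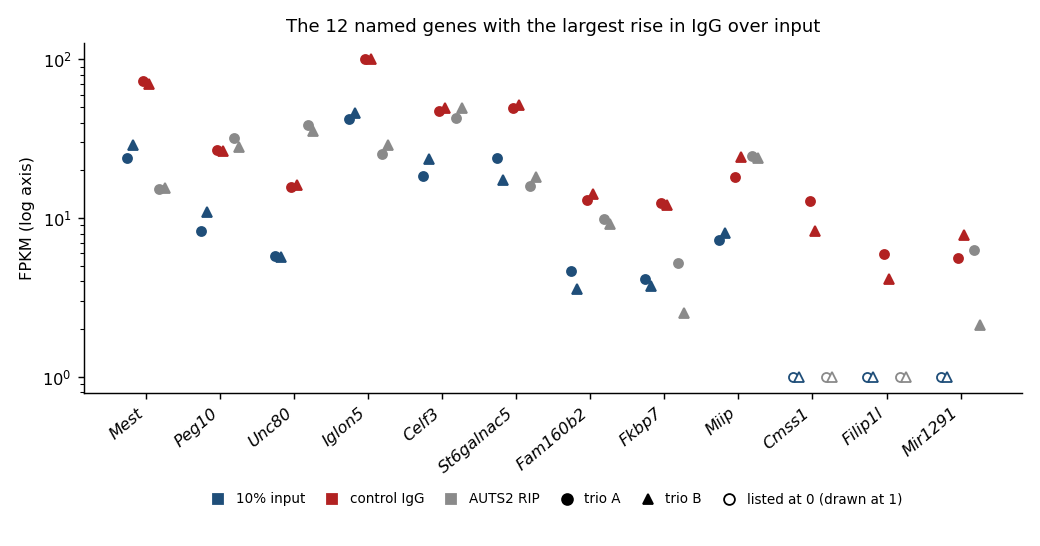
FPKM (log axis) of the 12 named genes with the largest rise, in each input, control IgG and AUTS2 RIP library, circles for trio A and triangles for trio B, values listed at 0 open at 1. Mest and Iglon5 are highest in IgG, Unc80 is highest in the RIP, and Cmss1, Filip1l and Mir1291 are listed at 0 in both inputs.

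The ranking rule leaves out symbols of unnamed models, which removed 33 genes called higher and 32 called lower. Several of the removed genes are described here after their values were seen. Gm26917, an annotated long non-coding RNA at chr17:39843013-39846341, stood at 614 and 549 FPKM in IgG and at 42.6 and 41.0 in input. That was 13.9-fold higher (log2 3.76 ± 0.10 SE, limma adjusted p = 0.000168), on 3098 and 4007 fragments against 250 and 190. It stood at 62.2 and 38.8 FPKM in the AUTS2 RIP, close to input. An annotated ribosomal RNA gene, CT010467.1 (chr17:39846353-39848827), lies within 2000 bases of it on the other strand. The neighbour Gm42418 (chr17:39846958-39848788) lies inside CT010467.1 on the opposite strand, and the strand setting of the counting is not given. Gm42418 stood at 186 and 176 against 126 and 137 FPKM (limma adjusted p = 0.0841). CT010467.1 itself stood at 13.8 and 8.87 against 7.85 and 3.00 FPKM (adjusted p = 0.284), so neither neighbour passed the test.

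Gm33869, an unconfirmed transcript model inside Nova1 on the same strand, stood at 23.7 and 32.0 FPKM against 3.96 and 3.43 (7.54-fold higher, limma adjusted p = 0.00961), and at 2.18 and 2.14 in the RIP.

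Gm10800, Gm10801 and Gm21738 carry the mouse major satellite, the AT-rich tandem repeat of pericentromeric heterochromatin. The first 250 bases of Gm10801 (chr2:98662237-98664083, plus strand, GRCm38) show it, with capitals on the longest stretch shared with Gm10800, 86 bases at positions 19 to 104:
Gm10801: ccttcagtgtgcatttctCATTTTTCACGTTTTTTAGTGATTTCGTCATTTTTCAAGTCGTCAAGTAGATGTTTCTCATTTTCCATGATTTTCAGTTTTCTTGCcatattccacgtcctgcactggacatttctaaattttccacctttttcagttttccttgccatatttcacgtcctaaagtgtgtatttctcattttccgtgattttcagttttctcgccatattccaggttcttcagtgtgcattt
Gm10800 stood at 279 and 346 FPKM in IgG and at 59.5 and 43.3 in input (6.08-fold higher, limma adjusted p = 0.00521), and at 35.6 and 58.0 in the RIP. Gm10801 stood at 86.5 and 132 against 14.6 and 15.7 (7.22-fold, adjusted p = 0.0064), and Gm21738 at 26.0 and 24.0 against 2.48 and 2.10 (10.9-fold, adjusted p = 0.00534, on 2.98 and 1.99 input fragments). In each case only the IgG libraries were high, and RIP and input lay together. Of all annotated genes, 13 had at least 25% of their 21-base words in Gm10801. Their summed FPKM was 397 and 509 in IgG, 78.8 and 61.7 in input, and 49.3 and 86.1 in the RIP. Of these 13, 4 were tested and 3 called higher, beside 0.738% of all genes. The 3 called are the genes just described, and they hold most of the sum. Since the set was built from a gene chosen after its values were seen, its count and sum are no separate result. Reads of one repeat cannot be assigned to one copy.

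RNA classes and transcript properties were set beside these gene groups. Protein-coding genes took 82.4% and 83.0% of FPKM in IgG, 78.4% and 76.4% in input, and 91.3% and 90.6% in the RIP. The class misc_RNA, which holds 7SL, 7SK and Y RNAs, took 2.13% and 2.23% in IgG, 4.64% and 4.99% in input, and 0.862% and 0.993% in the RIP, and 12 of its 38 tested genes were called lower. IgG thus lay between input and RIP for both. Unconfirmed transcript models (class TEC) had a median of 0.31 over 639 genes, with 2 called higher (0.313%). Sense-intronic RNAs had a median of 0.38 over 77 genes, with 1 called higher (1.30%). Among all genes 0.738% were called higher and 1.28% lower. Transcripts annotated as retained introns took 11.4% and 12.3% of the FPKM of protein-coding genes in IgG, 9.21% and 10.1% in input, and 12.3% and 12.9% in the RIP.

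Recovery rose with transcript length among protein-coding genes above the shortest class. The median log2 difference was -0.24 for transcripts of 0.5 to 1 kb (1190 genes), -0.15 for 1 to 2 kb, -0.01 for 2 to 4 kb, 0.09 for 4 to 8 kb and 0.18 over 8 kb (626 genes). Genes under 0.5 kb lay at -0.09 (312 genes). Over 4 kb, 45 genes were called higher and 0 lower, whereas under 1 kb 13 were called higher and 101 lower. By class, 0.902% at 4 to 8 kb and 2.56% over 8 kb were called higher, beside 0.680% of all protein-coding genes. At 0.5 to 1 kb 6.89% and under 0.5 kb 6.09% were called lower, beside 1.20%. On recovered fragments calls went both ways: 415 higher and 82 lower at 4 to 8 kb, 182 and 16 over 8 kb. Likewise 43 were higher and 149 lower at 0.5 to 1 kb, and 7 and 32 under 0.5 kb. Without the ribosomal protein and oxidative phosphorylation genes the medians were 0.02 under 0.5 kb and -0.19 for 0.5 to 1 kb. The shares called lower in that reduced set were 1.76% under 0.5 kb and 3.73% at 0.5 to 1 kb. Across the 12213 protein-coding genes Spearman's rho of the difference with length was 0.25 (0.19 in trio A and 0.24 in trio B), and with GC content 0.23. Genes share libraries and are not replicates, so no p is given. Over 5 equal classes of GC content the median went from -0.14 in the lowest to 0.17 in the highest. Length and GC content therefore moved with the list results above, and their part in them was tested only by the removal of their trends.

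**Figure D5:**
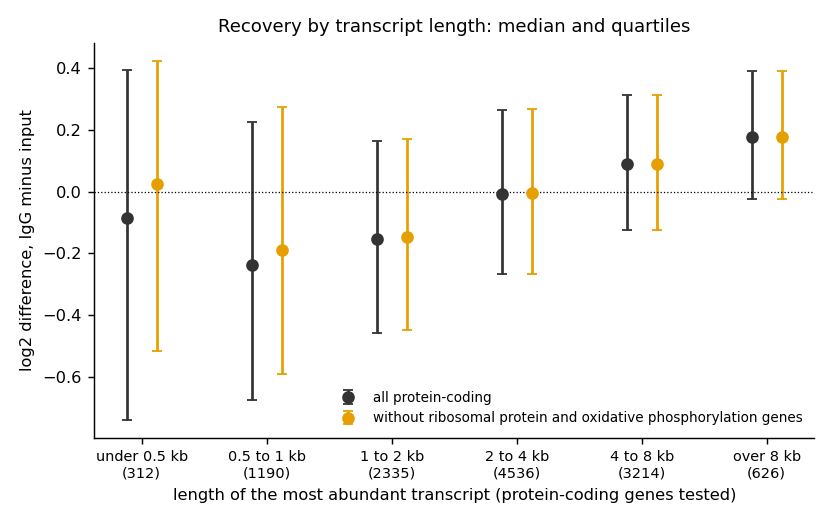
Log2 difference, IgG minus input, of protein-coding genes by length class of the most abundant transcript, with the number of genes under each class; points are medians and bars quartiles, dark for all genes and orange without ribosomal protein and oxidative phosphorylation genes. The dark median goes from -0.24 at 0.5 to 1 kb to 0.18 over 8 kb.

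Of 60 histone genes tested, 2 were called higher (3.33%, beside 0.738% of all genes) and 1 lower (1.67%, beside 1.28%). Hist1h1e, a linker histone that compacts chromatin, stood at 551 and 608 FPKM in IgG and at 314 and 312 in input (1.85-fold higher, limma adjusted p = 0.0144). It overlaps the core histone gene Hist1h2be and Gm11398 on the same strand. Hist1h1d stood at 152 and 161 against 86.6 and 100.5 FPKM (adjusted p = 0.0362). All 5 linker histone genes tested had a positive difference, with a median of 0.74. Of 55 core histone genes 0 were called higher and 1 lower, Hist1h4c, with a median of -0.26 that was -0.37 in trio A and 0.00 in trio B. The difference between the linker and core genes was not tested.

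The IgG and input libraries of a trio came from one lysate, and so from the same cells. A marker is therefore given here as an mRNA with its share of each library, not as a measure of cell number. Fabp7, a fatty acid binding protein of radial glia with a short mRNA, stood at 66.6 and 81.7 against 203 and 210 FPKM (adjusted p = 0.00922), the 1 call among 8 radial glia markers, whose median was 0.02. Of 4 red blood cell markers tested 2 were called lower, beside 1.28% of all genes. Hba-a1 stood at 18.6 and 22.2 against 43.5 and 44.3 FPKM (adjusted p = 0.0279) and Hbb-bs at 5.26 and 5.09 against 16.2 and 19.5 (adjusted p = 0.0251), and the marker list summed to 26.6 and 33.0 FPKM in IgG and 67.0 and 77.3 in input. Their part in other results was not tested.

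Proteins that bind antibodies directly include Fc receptors, some of them made by microglia in brain. Only mRNA was measured, and binding of these proteins to the IgG was not tested. Of 11 such genes 5 reached the filter and 0 were called, and the list summed to 15.2 and 16.4 FPKM in IgG and 19.34 and 19.03 in input. Microglial markers summed to 27.1 and 21.2 FPKM against 31.5 and 24.0, with 0 of 7 called. No immunoglobulin constant gene reached the filter. The 6 hindbrain markers summed to at most 0.514 FPKM in any of the 4 libraries.

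The RNA of the RIP target was present in the control pull-down. Auts2, a neuronal regulator of transcription and of the cytoskeleton, stood at 238 and 243 FPKM in IgG, at 139 and 184 in input and at 280 and 279 in the AUTS2 RIP. IgG was 1.49-fold above input without passing the test (log2 0.58 ± 0.14 SE, limma adjusted p = 0.111). Of 13 genes of AUTS2 and its polycomb partners, 0 were called, with a median of 0.14. Emx1, a cortical transcription factor, stood at 8.37 and 6.06 FPKM in IgG and 5.79 and 4.61 in input (adjusted p = 0.508).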

How the data were processed

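RNA from control IgG pull-downs and inputs of newborn cortex was measured by sequencing, and the AUTS2 RIP libraries of the same trios served to join tables. The authors deposited FPKM per transcript in one table per comparison. Reads were aligned to GRCm38.p4 with STAR 2.5 and quantified with Cuffdiff 2.2.1, per the submitters' processing notes, on GENCODE transcripts, per the file headers; the strand setting used in counting is not given in the sources. 0 columns lacked a sample.

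Of 128508 transcripts, 127975 matched GENCODE vM21 identifiers and were summed by symbol; the unmatched held 0.385% to 0.525% of FPKM. IgG values were multiplied by the median ratio of the shared RIP column, per letter. Genes whose mean reached 1 FPKM entered limma 3.58.1 as log2(FPKM + 1), in R 4.3.3 with trend and robust settings. The Benjamini-Hochberg threshold was 0.05. A fold on that scale understates the change of low genes. Folds of genes in the text are ratios of mean FPKM, unless said to be in fragments. The shares of genes 2-fold apart between libraries are on FPKM + 1. The procedure was tested on simulated data. The design divides each replicate into trios, so the letters pair the libraries; deviations of the same letter correlated at 0.0388 over 15036 genes.

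FPKM times transcript length stepped by a constant per library, and 91.5% to 92.1% of genes under 200 fragments came out whole within 0.05. These fragments served voom and a minimum of 20 fragments, chosen after seeing the data. Counts of fragments cover counting error only.

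Members and lists were chosen with earlier results of these data known. The text names the 12 largest rises and falls among called genes with a higher mean of at least 5 FPKM (leaving out Gm, Rik, -ps and clone symbols), the 10 most abundant genes, up to 4 called members of a list with the smallest p, or the 2 most abundant where none was called, and Auts2 and Emx1; not every gene so chosen is described. Genes outside the rule are said to be so, or appear as overlapping or compared genes. Alternatives covered scaling, pseudocount, filter, model, block, length and GC content, and each library left out. Some genes and sequences that the rule would name are not reported here.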

Additional observations from a re-analysis of the deposited data

How the results depend on the processing

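Against 111 genes called higher and 193 lower, leaving out any one library gave 0 to 0 calls in each direction. Without limma's trend and robust settings 0 were called higher and 1 lower, with 2210 genes at an unadjusted p under 0.05. The 6 libraries with RIP gave 335 and 368, removal of the length and GC trends 71 and 119, at least 2-fold in both trios without a model 504 and 550, a minimum of 20 fragments 182 and 298, and voom on fragments 1017 and 754, or 1069 and 618, 791 and 468, 389 and 378, and 542 and 506 without IgG A, IgG B, input A and input B. The share of calls that were higher was 36.5% at first, 47.7% with 6 libraries and 57.4% with voom. The cause was not tested, except that the trend removal and the smaller number of genes tested act by construction. With the replicate block 161 and 268 genes were called, of which 106 and 189 were among the first calls; of the named genes it added Ptms, Map1b, Rny3, Srrm2, Npy and Hist1h1b and ended the call of Filip1l, and it changed no other named call. Other pseudocounts, filters and scalings gave 75 to 165 higher and 159 to 280 lower; no call of a named gene changed sign under an alternative that tested it. With 1294660 to 1885590 fragments in IgG, 20 of the higher calls and 22 of the lower calls rest on fewer than 20 fragments over the 4 libraries.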
